A study of Bos taurus with 38 samples.

Results

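ARRDC2 (ENSBTAG00000039335) and ARRDC3 (ENSBTAG00000007116), a pair of arrestin-domain genes, were examined in Longissimus dorsi muscle of newborn beef calves. They are 2 of the 27607 genes in the deposited count table, and both were selected on their differences between the treatment groups of these same calves. The differences between treatment groups are therefore given as a description, without a test. Offspring sex, dam age, the combination of sex with treatment, and the relation between the genes from calf to calf were not used to choose them and were tested. For ARRDC2, the test of sex with treatment still turned out not to be independent of the choice, as given below.

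The calves were born to crossbred Angus cows, and muscle was taken with a biopsy needle between 12 and 48 h after birth. The control group (CTR, n = 10) came from cows without boluses. TR1 (n = 9), TR2 (n = 10) and TR3 (n = 9) came from cows given Se-yeast in the first, the second or the third trimester, as 3 boluses a week over 13 weeks that supplied 105 mg Se per week. All cows, CTR included, could eat a mineral mix holding 120 mg Se per kg as Na selenite, so CTR was a group with basal rather than no added Se. Each library is 1 calf. Local anesthetic containing epinephrine, an agonist of the adrenergic receptors discussed below, was injected under the skin around the biopsy site in calves of every group, according to the study's methods. By the sample labels, CTR held 4 females and 6 males, TR1 2 and 7, TR2 3 and 7, and TR3 5 and 4, and dams were 5 to 9 years old. The study's design text gives other numbers of females and males, also for CTR. The labels were used here, and ENSBTAG00000054758, the gene with the largest sex difference, had 0 CPM in all 24 calves labelled male and 5.81 to 12.9 CPM in all 14 labelled female.

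ARRDC2 and ARRDC3 belong to the alpha-arrestins, proteins that recognise membrane cargo and recruit ubiquitin ligases of the NEDD4 family, so that receptors and transporters are sorted inward or to the lysosome. ARRDC3 is known for its action on beta-adrenergic receptors and for effects on energy expenditure, and ARRDC2 is a less studied relative. TXNIP, the best known member of the family, binds thioredoxin and limits glucose uptake. In muscle, transcripts of several alpha-arrestins are known to respond to nutrient supply, insulin and stress hormones.

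Total counts ranged from 12921223 to 17471666 per calf (median 14121365.5), and 12964 genes passed the filter on low counts, both arrestin-domain genes among them. Values are given in CPM, counts scaled to a common library size, after TMM normalization. Female TR1 calf A2052 and male TR2 calf A2023 stood apart. They held the highest or the lowest value of all calves in 25.8% and 23.5% of genes, against a median of 4% per calf. TR2 males A2100 (11.8%) and A2099 (10.6%) came next, and no other calf exceeded 5.8%. All of these calves had ARRDC2 of 20.7 CPM or more, as did A2090 (5.6%) and A2096 (3.1%). A2052 also had the largest TMM factor (1.35, lowest of all calves 0.887) and the smallest summed level of 12 skeletal muscle markers (48000 CPM, against 80300 to 188000 CPM in the others). Lists, likeness and marker sums were also computed without A2052, without A2023 and without TR2 calf A2099, which had the second highest ARRDC2. They were not computed without A2100.

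ARRDC2 was low in most calves and very high in a few. CTR calves ranged from 3.65 CPM in A2091 over a median of 8.00 CPM to 21.1 CPM in A2096 (mean 9.50 ± 4.89 SD, n = 10). TR1 calves ranged from 3.42 CPM in A2057 over a median of 8.72 CPM to 183 CPM in A2052 (29.2 ± 57.8 SD, n = 9). The TR1 mean was set by that calf, since the next highest, A2032, had 17.7 CPM, and without A2052 the TR1 mean was 9.98 ± 5.12 (SD, n = 8), close to CTR. TR2 calves ranged from 4.09 CPM in A2054 over a median of 8.71 CPM to 57.6 CPM in A2099 (17 ± 16.7 SD, n = 10). They fell into 6 calves below 9 CPM and 4 males at or above 20.7 CPM, namely A2100 (20.7 CPM), A2090 (25.4 CPM), A2023 (26.9 CPM) and A2099. TR3 calves were the lowest and the least variable, from 3.26 CPM in A2087 over a median of 5.72 CPM to 10.1 CPM in A2033 (6.17 ± 2.42 SD, n = 9). All 4 groups overlapped. The order of the group medians was TR3, CTR, TR2 and TR1, and the last 3 of these medians lay within 1 CPM of each other. Counts behind these values ran from 46 to 3470 reads per calf, so counting error was small beside the 56-fold range between calves.

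ARRDC3 had a different pattern, with its highest median in CTR. CTR calves ranged from 15 CPM in A2091 over a median of 35.1 CPM to 54.0 CPM in A2096 (36.8 ± 13.3 SD, n = 10). TR1 calves ranged from 7.37 CPM in A2052 over 21.3 CPM to 37.7 CPM in A2032 (21.9 ± 10.9 SD, n = 9). The calf with the most ARRDC2 was thus the calf with the least ARRDC3 of all 38. TR2 calves ranged from 12.8 CPM in A2023 over 21.7 CPM to 85.0 CPM in A2090 (31.2 ± 22.9 SD, n = 10), and TR3 calves from 10.0 CPM in A2074 over 22.6 CPM to 54.6 CPM in A2020 (26.5 ± 13.2 SD, n = 9). In each of TR1, TR2 and TR3 only 2 calves were above the CTR median. The medians of the 3 Se-supplemented groups lay between 21.3 and 22.6 CPM, all groups overlapped, and TR2 held the 2 highest calves of all, A2090 and the female A2079 (60.3 CPM). In bulk muscle, fewer cells of a type and less RNA per cell cannot be told apart in any of these values.

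**Figure D1:**
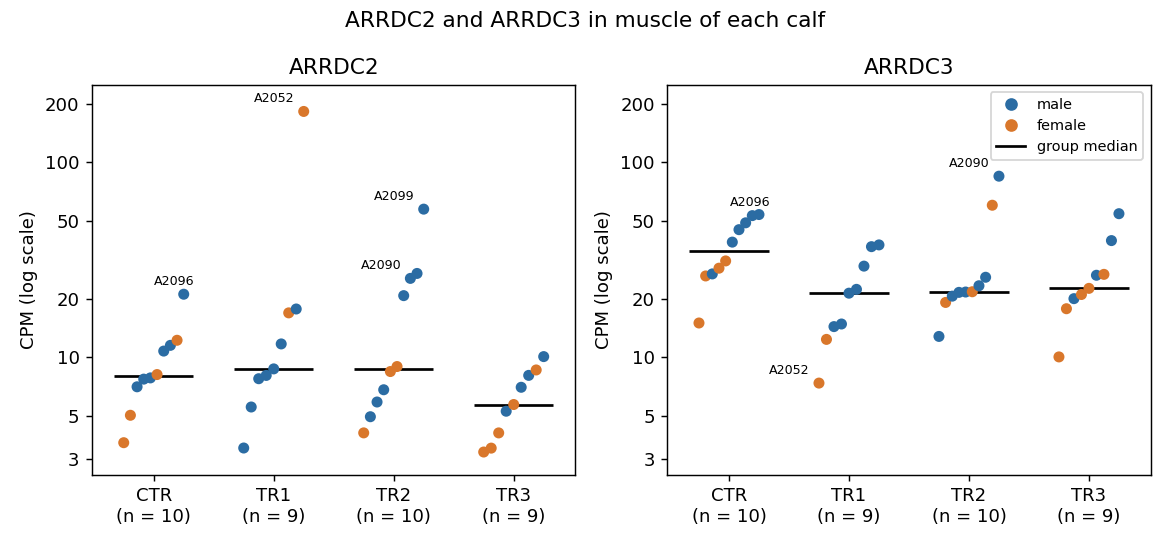
CPM of ARRDC2 and ARRDC3 (log axis) in each of 38 calves by group, with males in blue, females in orange and the group median as a bar. ARRDC2 reached 183 CPM in TR1 calf A2052 and 57.6 CPM in TR2 calf A2099, while ARRDC3 had a CTR median of 35.1 CPM above those of the other groups.

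The spread of ARRDC2 from calf to calf was larger than that of most genes. After removal of dam age, sex and treatment group, the SD of its log2 CPM was 1.12, which placed it at the 97.9 percentile of all genes tested. ARRDC3 had an SD of 0.63 on the same scale (82.5 percentile), and the median gene had 0.37. The excess of ARRDC2 lay in TR1 and TR2. Within groups, its SD of log2 CPM was 0.69 in CTR, 1.62 in TR1 (0.78 without A2052), 1.25 in TR2 and 0.58 in TR3. For ARRDC3 these were 0.58, 0.78 (0.62 without A2052), 0.81 and 0.69.

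The values that chose the genes were the group differences themselves. On the scale of variance-stabilized group means, standardized over all genes, ARRDC2 differed from CTR by 3.16 in TR1, 2.28 in TR2 and -3.73 in TR3, and ARRDC3 by -4.84, -1.89 and -3.97. A standardized difference of 1.5 in size or more was reached by 10.5% of genes in TR1, 10.4% in TR2 and 10.9% in TR3. That scale divides by the spread over genes and not by the spread between calves. Without calf A2052, the TR1 difference of ARRDC2 on this scale was 0.31 and that of ARRDC3 was -4.72.

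Against the spread between calves, the differences of ARRDC2 from CTR were less than 2 times their standard errors. In the edgeR fit with dam age and sex, ARRDC2 had a log2 fold change over CTR of 1.14 ± 0.58 (SE) for TR1, 0.95 ± 0.53 for TR2 and -1.03 ± 0.60 for TR3. Single calves carried much of each. Without A2052 the TR1 value was -0.01 ± 0.40 and the TR3 value -0.57 ± 0.41, and without A2099 the TR2 value was 0.34 ± 0.49. In males alone, which leaves out A2052, the TR1 value was -0.34 ± 0.44, the TR2 value 0.94 ± 0.44 and the TR3 value -0.20 ± 0.55.

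The lower ARRDC3 in TR1 helped to choose the gene. It did not rest on 1 calf, but this steadiness is no separate evidence. The log2 fold change of ARRDC3 was -0.84 ± 0.30 (SE) in TR1, and with each calf left out in turn it stayed between -0.99 and -0.76. The values were -0.24 ± 0.28 in TR2 and -0.25 ± 0.30 in TR3, both smaller than their standard errors. In the same fit, edgeR called 0% of genes for TR1, 0% for TR2 and 0% for TR3 at an adjusted p of 0.05. The unadjusted p was under 0.05 for 331 genes (2.55%), 1081 genes (8.34%) and 175 genes (1.35%). DESeq2 called 0, 1 and 0 genes in these comparisons.

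TR1 and TR3 were also set side by side. Between them, ARRDC2 was lower in TR3, with a log2 fold change of -2.16 ± 0.58 (SE), and ARRDC3 was higher by 0.59 ± 0.31. These values come from the same calves as those against CTR and are no separate evidence.

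**Figure D2:**
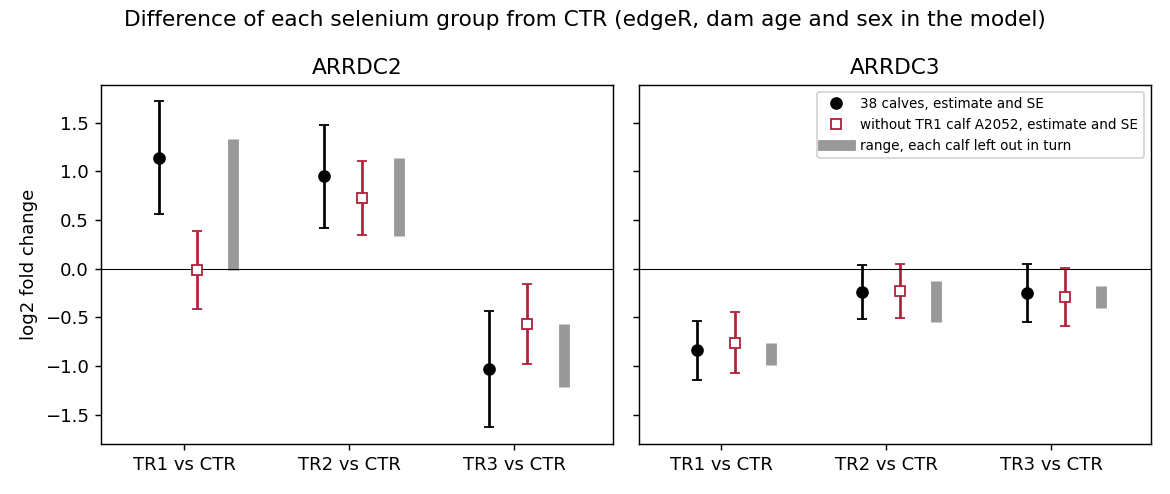
Log2 fold change against CTR in TR1, TR2 and TR3 for ARRDC2 and ARRDC3 (points, estimate with SE over 38 calves; open squares, without calf A2052; grey bars, range with each calf left out in turn). The TR1 value of ARRDC2 moved from 1.14 to -0.01 without A2052, whereas that of ARRDC3 stayed between -0.99 and -0.76.

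Offspring sex was the first factor not used in the choice of the genes. ARRDC3 was lower in females (22.9 ± 12.9 CPM SD, n = 14) than in males (33.2 ± 17.1, n = 24), and only 1 of 14 females but 10 of 24 males exceeded the CTR median. In CTR, whose median set this cut-off, 5 of 6 males and 0 of 4 females exceeded it. The log2 fold change of females over males was -0.73 ± 0.23 (SE), with a 95% interval from -1.20 to -0.26. The unadjusted p of edgeR's quasi-likelihood F-test was 0.00326, the 90th smallest of 12964, and the adjusted p was 0.465, so that the difference did not pass the test over all genes. Over the 38 fits with a calf left out, the edgeR adjusted p ranged from 0.152 to 0.715, and DESeq2 gave 0.187. Among all genes 6.61% had an unadjusted p under 0.05 for sex, and 0.0309% (4 genes, all higher in females) passed at an adjusted p of 0.05.

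By group, females averaged less ARRDC3 than males in CTR, TR1 and TR3 but not in TR2. In CTR, males had 26.8 to 54.0 CPM (mean 44.6 ± 10.3 SD, n = 6) and females 15 to 31.2 CPM (25.3 ± 7.15, n = 4), with 1 male inside the female range. Males averaged 25.3 CPM and females 9.86 CPM in TR1, and 35.2 and 19.6 CPM in TR3. TR2 males averaged 30.1 CPM and TR2 females 33.7 CPM, where A2079 alone had 60.3 CPM and the other two females had 19.1 and 21.7 CPM. ARRDC2 did not differ detectably with sex (log2 fold change 0.28 ± 0.43 SE, 95% interval -0.59 to 1.15, edgeR adjusted p = 0.952). Without A2052 its value was -0.58 ± 0.31, lower in females, with an edgeR adjusted p of 0.484.

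Neither gene passed the test for dam age. The slope per year of dam age, on the log2 scale, was -0.31 ± 0.17 (SE) for ARRDC2 (edgeR adjusted p = 0.993) and 0.13 ± 0.09 for ARRDC3 (adjusted p = 0.993). Without A2052, the calf of a 5-year-old dam, the ARRDC2 value was -0.03 ± 0.12. By edgeR, 0% of genes passed for dam age and 3.36% (436 genes) had an unadjusted p under 0.05, and DESeq2 also called 0 genes.

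Whether the treatment differences depended on sex was tested with 3 interaction terms together. ARRDC2 passed this test (F = 12.1, edgeR adjusted p = 0.0103, the 19th smallest p of all genes), as did 0.617% of genes (80 genes). The term for TR1 was 4.34 ± 0.91 (SE, female minus male, log2), and the terms for TR2 and TR3 were -1.09 ± 0.84 and -0.05 ± 0.81. TR1 held 2 females, A2052 with 183 CPM and A2047 with 16.9 CPM, and its 7 males ranged from 3.42 to 17.7 CPM. Without A2052 the edgeR adjusted p for ARRDC2 was 0.812, and 2 genes passed in place of 80. The same calf carried the TR1 difference that helped to choose ARRDC2 (standardized 3.16, and 0.31 without A2052). For ARRDC2 this test was therefore not independent of the choice. Without A2047 the TR1 females were A2052 alone, and the fit then takes their spread from the calves of the other groups and sexes. Under that assumption the adjusted p was 0.00015, and 1516 genes passed. ARRDC3 did not pass (F = 1.36, edgeR adjusted p = 0.594).

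No relation between the genes from calf to calf passed the test over all calves. Over residuals of log2 CPM after dam age, sex and group, Pearson's r between ARRDC2 and ARRDC3 was -0.09 (two-sided permutation p = 0.586, n = 38) and Spearman's rho was 0.02 (p = 0.882). Without A2052 and A2099, the calves farthest from the ARRDC2 median, r was 0.12 (permutation p = 0.468, n = 36). Each calf left out in turn gave r from -0.19 to 0.05.

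Within groups, r was taken on log2 CPM without removal of dam age or sex, and the relation had no common direction. In CTR it was positive (r = 0.73, permutation p = 0.0157, adjusted over 4 groups 0.0628, rho = 0.55, p = 0.104). A2096 had the most and A2091 the least of both genes in CTR, and without these calves r was 0.34 (exact permutation p = 0.401, n = 8). In TR1 it was negative (r = -0.66, exact permutation p = 0.0448, adjusted 0.0896, rho = -0.40, p = 0.291), and without A2052 and A2057 it was -0.26 (exact permutation p = 0.545, n = 7). In TR2 and TR3, r was 0.07 and 0.12 (permutation p = 0.854 and exact permutation p = 0.760). No group passed after adjustment over the 4 groups. In CTR, females averaged less than males of ARRDC2 (7.27 against 11 CPM) and of ARRDC3 (25.3 against 44.6 CPM). TR1 females averaged more ARRDC2 (99.8 against 8.99 CPM) and less ARRDC3 (9.86 against 25.3 CPM) than TR1 males. The part of sex in these r values was not tested.

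**Figure D3:**
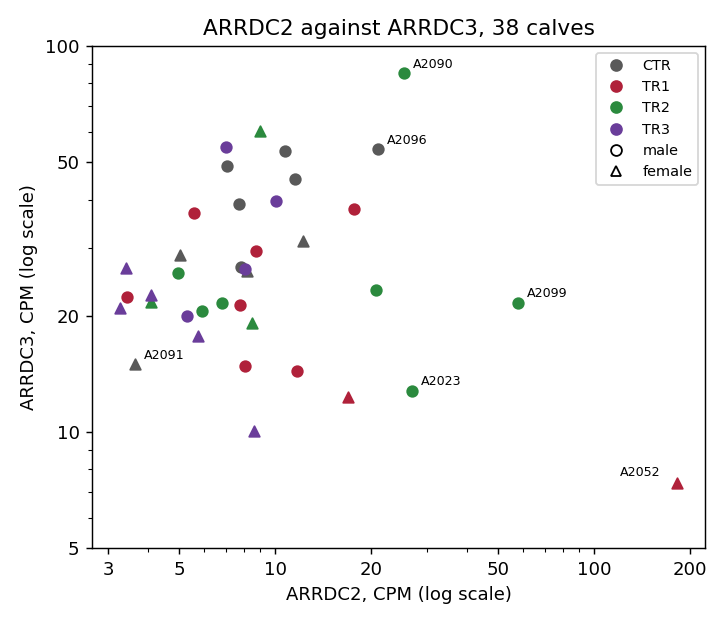
ARRDC3 against ARRDC2 in CPM (both axes log), 1 point per calf, coloured by group, with circles for males and triangles for females. A2052 combined the highest ARRDC2 (183 CPM) with the lowest ARRDC3 (7.37 CPM), and A2090 had high values of both (25.4 and 85.0 CPM).

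Genes of the pathways in which arrestin-domain proteins take part were read from the same fit, and their likeness to ARRDC2 and ARRDC3 was given as Pearson's r over the same residuals of 38 calves. These r values are descriptions, since genes of a calf share its library, depth and scaling. The median gene had r = 0.01 with either gene, and 50.9% of 12962 genes were positive with ARRDC2 and 51.9% with ARRDC3. Among 2876 genes with a symbol, 47.4% were positive with ARRDC2 (median -0.03) and 58.1% with ARRDC3 (median 0.06). Symbols were available for 2878 genes, all of them genes that the study had listed from these calves, so no pathway list is independent evidence.

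TXNIP was the other alpha-arrestin with a symbol and ran with ARRDC2 (r = 0.60, and 0.54 without A2052) rather than with ARRDC3 (r = -0.16). Group medians of TXNIP were 382 CPM (CTR), 371 CPM (TR1), 472 CPM (TR2) and 316 CPM (TR3), and its 2 highest calves were A2099 (1030 CPM) and A2052 (958 CPM). The log2 fold change over CTR was -0.17 for TR1, 0.23 for TR2 and -0.58 for TR3, none past the test. The same calves thus carried the top values of TXNIP and ARRDC2. TXNIP was nearly as high in CTR calf A2098 (939 CPM), which had 12.2 CPM of ARRDC2.

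Of 4 genes for NEDD4-type ubiquitin ligases, the enzymes that alpha-arrestins recruit, NEDD4L resembled ARRDC2 most (r = 0.71, and 0.47 without A2052). NEDD4L had 358 CPM in A2052 and 295 CPM in A2099 against a median of 27.6 CPM over all calves. WWP2 also ran with ARRDC2 (r = 0.46, and 0.48 without A2052), while NEDD4 (r = -0.04) and HECW2 (r = -0.11) did not. With ARRDC3 the 4 genes had r from -0.36 (NEDD4L) to 0.16 (NEDD4). None passed the test in TR1, TR2 or TR3 by edgeR.

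Among 8 genes of beta-adrenergic and cAMP signalling, ADCY6, an adenylyl cyclase, was the most like ARRDC2 (r = 0.56, and 0.35 without A2052). GNAS, the stimulatory G protein, and PDE4B, a phosphodiesterase that degrades cAMP, had r of -0.41 and -0.33 with ARRDC2, and -0.14 and -0.07 without A2052. Over the list, 5 of 8 genes were positive with ARRDC2 (median r 0.11, and 4 with a median of 0.03 without A2052) and 3 of 8 with ARRDC3 (median -0.03, and 4 with a median of -0.01).

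Transcripts induced by cAMP and other acute signals were mostly positive with ARRDC3. Of 11 genes, 10 were positive with ARRDC3 (median r 0.23) and 7 with ARRDC2 (median 0.10). Without A2052 the counts were 9 (median 0.20) and 10 (median 0.15), so the list did not separate the genes by count. The orphan nuclear receptor NR4A2 (r = 0.45) and PPARGC1A, a coactivator of mitochondrial genes (r = 0.44), were the most like ARRDC3, JUNB had r = -0.33, and KLF4 resembled ARRDC2 (r = 0.52, and 0.38 without A2052). In TR2, 10 of the 11 had a positive log2 fold change (median 0.56) against 51.3% of all genes, and in TR1 and TR3 5 and 4 did. By edgeR and by DESeq2, no gene of the pathway lists passed in a treatment comparison.

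Genes around MondoA, the glucose-sensing factor that is known to switch on TXNIP and some arrestin-domain genes, were mostly positive with ARRDC2 (7 of 8, median r 0.32, and 7 of 8 with median 0.23 without A2052) and mostly negative with ARRDC3 (2 of 8 positive, median -0.15). MLXIP, the gene for MondoA, had r = 0.27 with ARRDC2 and -0.36 with ARRDC3, and without A2052 the first of these was -0.07. Its relative MLXIPL and the glucose transporter SLC2A1 each had r = 0.37 with ARRDC2 (0.36 and 0.24 without A2052). In TR2, 7 of the 8 had positive log2 fold changes (median 0.46), 5 of them at an unadjusted p under 0.05, a level that 8.34% of all genes and 23.1% of genes with a symbol reached in TR2. Without A2099, 2 of them did (median 0.34).

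Genes of insulin signalling and FOXO resembled ARRDC2. Of 11, 9 were positive (median r 0.58), and without A2052 8 were, with a median of 0.36 (0.63 with 9 positive without A2023, and 0.45 with 8 without A2099). The insulin-like growth factor receptor IGF1R (r = 0.75), the insulin receptor substrate IRS2 (0.72), the Rab regulator TBC1D1 (0.65) and FOXO4 (0.63) were the closest, with r of 0.56, 0.50, 0.45 and 0.47 without A2052. IRS2 had 40.4 CPM in A2052 and 21.0 CPM in A2099, where its CTR values were 0.598 to 5.02 CPM. Positive TR1 differences were found in 9 of the 11 (median 0.35) with all calves and in 3 of the 11 (median -0.05) without A2052.

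Genes of glucocorticoid and fasting responses also resembled ARRDC2, with a median r close to that of the insulin and FOXO list. All 19 genes had a positive r with ARRDC2 (median 0.57). All 19 did so without A2052 (median 0.35) and without A2023 (median 0.64), and 18 without A2099 (median 0.54), whereas 8 were positive with ARRDC3 (median -0.14). The transcription factor CEBPD (r = 0.87), glutamine synthetase GLUL (0.80), the lipid phosphatase and coregulator LPIN1 (0.80) and the transcription factor KLF15 (0.75) were the nearest. A2052 was the highest of all calves in 10 of the 19 genes and among the top 3 in 15, and A2099 was among the top 3 in 12. Over all genes, A2052 held the highest or the lowest value in 25.8% and A2099 in 10.6%. The share of all genes with these calves in the top 3 was not computed.

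Single calves held very high values of these genes. CEBPD had 688 CPM in A2052 and 151 CPM in A2099, and 9.69 to 47.1 CPM in CTR. GLUL had 4550 CPM in A2052 and 4360 CPM in A2099, and 145 to 552 CPM in CTR. KLF15 had 151 CPM in A2052 and at most 25.3 CPM in any other calf. A2052 and A2099, with the highest and second highest ARRDC2, were also the highest and second highest in CEBPD, GLUL and KLF15. They did not rank so in every gene of the list.

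By group, the signs of the list ran parallel to those of ARRDC2, in comparisons that share the CTR calves. In TR1, 18 of the 19 genes had positive log2 fold changes (median 0.70), but without A2052 9 did (median -0.06). In TR2 17 did (median 0.83), and 15 without A2099 (median 0.47) and 18 without A2023 (median 0.81). In TR3 4 did (median -0.30), and without A2052 8 (median -0.03). Over all genes, 50.4%, 51.3% and 47.2% were positive, with medians of 0.002, 0.007 and -0.009. At an unadjusted p under 0.05, 1 gene was higher in TR1, 7 were higher in TR2 (5 without A2099) and 1 was lower in TR3, and among the genes with a symbol 9.03%, 23.1% and 4.45% reached that level in either direction.

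**Figure D4:**
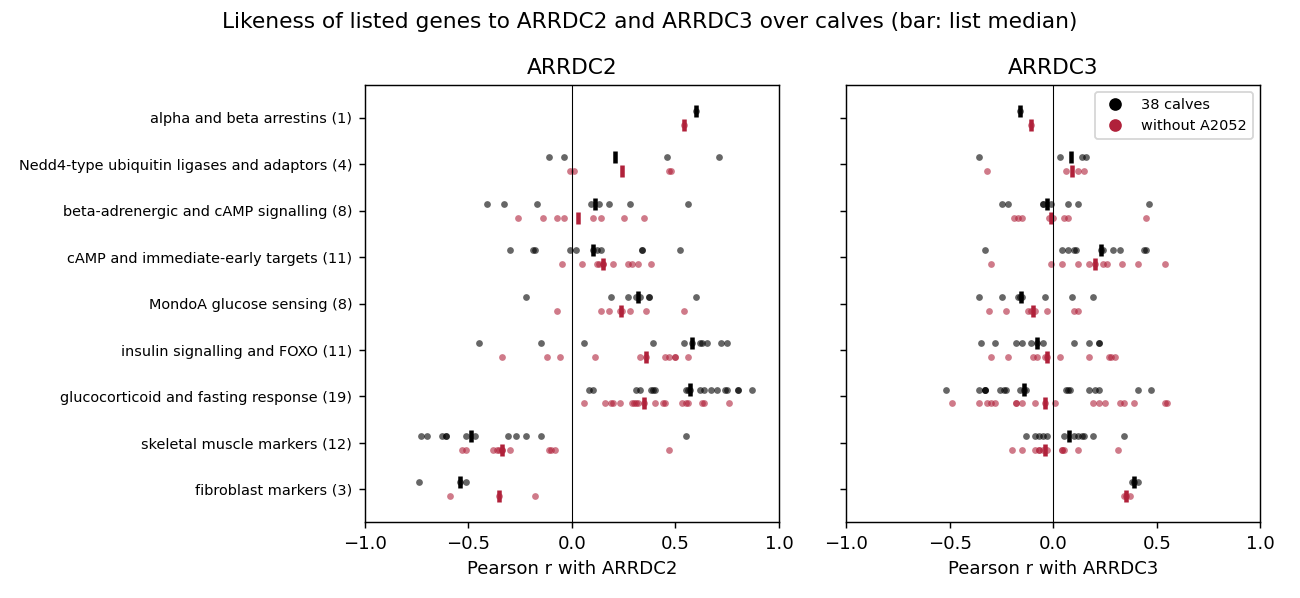
Pearson's r with ARRDC2 and with ARRDC3 over calves for each gene of 9 lists (1 point per gene, number of genes in brackets, bar for the list median), with all 38 calves in black and without A2052 in red. All 19 glucocorticoid and fasting genes lie right of 0 for ARRDC2, and they lie on both sides of 0 for ARRDC3.

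The genes most like each member were taken from 2578 genes with a symbol and a mean of at least 1 CPM. For ARRDC2 the highest were CEBPD (r = 0.87), UTP14A, GIGYF1, NFKBIA and BTG1 (0.83 each), with Spearman's rho of 0.64 to 0.78, and r of 0.68 to 0.76 without A2052, 0.83 to 0.87 without A2023 and 0.79 to 0.85 without A2099. NFKBIA encodes the inhibitor of NF-kappaB, BTG1 a protein that restrains proliferation, UTP14A a factor of ribosome assembly and GIGYF1 a partner of the insulin receptor adaptor GRB10. The lowest were the glutaredoxin gene GLRX and the membrane metalloproteinase MMP15 (-0.86 each), followed by the calcium channel ORAI1, the phosphatase PGP and GAMT, which makes creatine (-0.85 each). Without A2052 these had r of -0.79 to -0.72. GLRX was lowest of all calves in A2052 (3.05 CPM, against a median of 26.4 CPM).

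ARRDC3 had fewer and weaker companions. Over all genes, 120 had r above 0.5 with ARRDC3 and 182 below -0.5, where ARRDC2 had 1159 and 1376, and without A2052 ARRDC2 had 396 and 532. Without A2023, ARRDC3 had 79 and 97. The highest for ARRDC3 were the microtubule-associated EML2 (r = 0.64), the circadian repressor CRY2 (0.63), the scaffold MPDZ (0.61), the cholinesterase BCHE (0.60) and the relaxin-family receptor RXFP2 (0.59). The lowest were the RNA exosome subunit EXOSC6 (-0.64), C8H9orf40 (-0.62), CIPC, another repressor of the circadian clock (-0.61), the ubiquitin ligase TRIM36 (-0.59) and DBNDD2 (-0.58). Without A2052, r was 0.57 to 0.64 for the first 5 and -0.63 to -0.55 for the last 5. Without A2023 these ranges were 0.54 to 0.62 and -0.60 to -0.53. The list of ARRDC3 and that of ARRDC2 had no gene in common. Lists this short, taken from 2578 genes, would seldom share a gene if unrelated, so this is no result about the genes.

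Markers of the tissue were checked beside these results. All 12 skeletal muscle markers were expressed in every group, and 11 of them, which encode sarcomere proteins, desmin, creatine kinase and myoglobin, averaged 2580 CPM or more in each group, with PVALB at 0.263 to 1.87 CPM. The sum of the 12 ranged from 116000 to 185000 CPM for CTR, from 48000 to 182000 for TR1, from 107000 to 186000 for TR2 and from 90000 to 188000 for TR3. Its log2 value had r = -0.63 with ARRDC2 over 38 calves, and -0.39 without A2052. With ARRDC3 the values were 0.27 and 0.04. Leaving out A2023 or A2099 gave -0.63 and -0.69 with ARRDC2, and 0.26 and 0.27 with ARRDC3. Taken singly and over the residuals, a measure other than the r of the sum, only the desmin gene DES was positive with ARRDC2 (r = 0.55, and 0.47 without A2052). The other muscle markers had r from -0.73 (MYL1) to -0.15 (CKM).

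Markers of other cell types were lower, and their sums were compared with the genes in the same way. The sum of 3 fibroblast markers (CTR 306 to 841 CPM, TR1 166 to 742, TR2 207 to 439, TR3 268 to 766) had r = -0.55 with ARRDC2 and 0.31 with ARRDC3, and -0.39 and 0.16 without A2052. The sum of 5 leukocyte markers (CTR 72.8 to 336 CPM, TR1 48.7 to 233, TR2 23.9 to 241, TR3 75.6 to 253) had r of -0.38 and 0.35 (-0.28 and 0.28 without A2052). VWF, the endothelial marker with a symbol (23.3 to 69.5 CPM) and the only gene of its sum, had r of 0.42 and -0.21 (0.29 and -0.09). Over the residuals VWF had 0.41 and -0.28 (0.18 and -0.22 without A2052). The r of marker sums was thus not the r over residuals. Red blood cell markers (3 genes, 6.17 to 455 CPM) had r of -0.17 and 0.23 (-0.07 and 0.17), and fat cell markers (4 of 6 genes, 3.00 to 45.6 CPM) r of -0.03 and -0.10 (0.05 and -0.16). Markers within a sum could differ, here by r over the residuals, which is not comparable with the r of the sums. With ARRDC2, CD14 and CD163 had r of 0.08 and 0.04, and the other leukocyte markers were negative. PLIN1 had -0.48, and the other fat cell markers had -0.02 to 0.18. The part of cell composition in the ARRDC2 and ARRDC3 values was not tested.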

How the data were processed

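Poly-A libraries of 38 calves were sequenced on the strand-specific kit named in the methods. The authors mapped reads to ARS-UCD1.2 with STAR 2.7.3a and counted them per gene of Ensembl release 100, and the deposited table holds these raw counts without normalization. The strand column kept is not given in the sources used here, so overlapping antisense reads could be included. Genes were filtered with filterByExpr for sex and group, scaled with TMM and fitted by quasi-likelihood with edgeR 4.0.16 in R 4.3.3 (glmQLFit, glmQLFTest) on dam age, sex and treatment group, with Benjamini-Hochberg adjustment over 12964 genes at 0.05. SE was obtained as the ratio of log2 fold change to the root of F. Residuals for r came from log2 CPM with a prior count of 2, and r within groups used log2 CPM itself. The r of marker sums was not taken over these residuals. Permutation tests of r used 100000 permutations, or all for 9 or fewer calves, two-sided. The fits were tested on simulated data.

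ARRDC2, ARRDC3 and the gene lists were chosen with earlier results of these data known. Named were all genes of the arrestin and NEDD4 lists, up to 4 of each other pathway list by size of r with either gene, and the 5 genes at each end of r. The result of a single gene that this rule names is not reported here. Symbols came only from the study's supplementary gene tables (2878 tested genes), so list members without one were not analysed here. No sequence or coordinate is given, because no genome of the build was used here. CPM does not correct for gene length, so levels of different genes are not compared. No pair of calves within a group was as alike as counting error allows (chi-square per degree of freedom at least 17), and each calf was 1 replicate. The study's differential expression columns were not used. DESeq2 1.42.0, library-size scaling, no filter, a robust fit, other covariates, males only, a fit of 2 groups alone and omission of single calves were alternatives. Analyses without A2052, A2023 or A2099 for lists and likeness, interactions with a calf left out, and calves of other groups left out were added after seeing the data.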

Additional observations from a re-analysis of the deposited data

Results flagged for a closer look

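Single calves stood apart from their groups for ARRDC2 in 3 of 4 groups, by the gap to the next calf divided by the range of the group. These were CTR calf A2096 at 21.1 CPM (gap ratio 0.507, critical value 0.466), TR1 calf A2052 at 183 CPM (0.92, critical value 0.493) and TR2 calf A2099 at 57.6 CPM (0.573, critical value 0.466). On the log2 scale only A2052 passed (0.591). No calf stood apart for ARRDC3. ARRDC2 was chosen on group differences that A2052 and A2099 helped to make, so its flags are not independent of the choice. Of 8 groups of values tested on each scale, chance flags about 1 in 20 if the values are normally distributed. Whether they are was not tested on either scale.

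ARRDC2 passed the test for a treatment difference that depends on sex (edgeR interaction test, adjusted p = 0.0103). That test was not independent of the choice of ARRDC2, since A2052 carried both. The adjusted p was 0.812 without A2052, which is 1 of 2 TR1 females. With each calf left out in turn it ranged from 0.00015 to 0.812. The lowest value left out the other TR1 female, so that this arm was A2052 alone and its spread was assumed from the other calves.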

How the results depend on the processing

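The direction of ARRDC2 in TR1 (log2 fold change 1.14) was lost without A2052 and in males only (-0.34), and its sex difference (0.28) was -0.04 with dam age as a factor. With each calf left out in turn, ARRDC2 ranged from -0.01 (A2052) to 1.33 (A2096) in TR1, 0.34 to 1.14 in TR2 and -1.22 to -0.57 in TR3. ARRDC3 ranged from -0.99 to -0.76, -0.55 to -0.13 and -0.40 to -0.18. The sex difference ranged from -0.58 (A2052) to 0.42 for ARRDC2 and from -0.93 to -0.62 for ARRDC3. Per year of dam age the ranges were -0.41 to -0.03 and 0.10 to 0.18. The interaction F of ARRDC2 ranged from 2.69 (A2052) to 17.5 (A2047) and that of ARRDC3 from 0.187 to 4.49, and the correlation from -0.19 to 0.05 (A2052). Genes called ranged from 4 to 8 for sex (7 without A2067, 8 without A2099), from 0 to 1 for dam age (1 without A2075, A2096, A2068, A2033 or A2074) and from 2 (A2052) to 1516 (A2047) for the interaction (48 without A2099, 51 without A2057, 131 without A2023). Without the filter, 11 genes were called for sex and 3 for dam age. For the interaction, library size called 235 genes and DESeq2 379, against 80 by edgeR, and ARRDC2 passed under each (adjusted p 0.0056 and 0.000174). The correlation of -0.09 was 0.12 without A2052 and A2099 and 0.05 with library size. Without removal of dam age or sex, it was 0.73 within CTR, -0.66 within TR1, 0.07 within TR2 and 0.12 within TR3. The cause of these changes was not tested, other than that leaving out a calf removes its value. Of 98 values under the other settings 86 were counted as the same. For treatment fold changes this meant the same sign and a shift below the residual SD (1.12 for ARRDC2, 0.63 for ARRDC3). For numbers of genes called it meant a number of similar size. For the rest it meant the same direction and side of the threshold.

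Group sizes of 9 and 10 with 2 to 5 females in a group limit what can be said of sex within treatment. Each calf had at least 46 reads of ARRDC2 and 140 of ARRDC3, and the effect of depth on the comparisons was not tested.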
